A study of Mus musculus with 4 samples.

Results

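S100 genes encode small dimeric calcium-binding proteins, and 8 of them are described here in liver cells of mice made to delete Pnpt1 in hepatocytes: S100a1, S100a4, S100a6, S100a8, S100a9, S100a10, S100a11 and S100a13. They were chosen by symbol, each found through the RefSeq accession of its probe, and are 8 of the 11495 named genes that gave a measurable signal. In HepKO cells, S100a4, S100a6, S100a8, S100a9, S100a10 and S100a11 were higher than in WT cells, by 1.80-fold to 10.5-fold. S100a1 and S100a13 were lower in HepKO cells, by 2.21-fold and 2.96-fold.

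The HepKO mice were C57BL/6J animals with Pnpt1 fl/fl alleles and 1 copy of an Albumin-Cre transgene, which drives recombination in hepatocytes and other cells of that lineage. The WT mice were C57BL/6J animals with the same Pnpt1 fl/fl alleles and no Cre, so the floxed allele, whose breeding scheme the labels write as neo-fl, was shared by both genotypes. Pnpt1 encodes PNPase, an exoribonuclease of mitochondria. Cells came from collagenase-perfused liver, were washed by slow centrifugation, and no sort is described. There were 2 pairs of littermates, 1 labelled male at 12.29 weeks (12.9 weeks in another label) and 1 labelled female at 4.29 weeks, with 1 HepKO and 1 WT mouse each. Each pair was hybridised on 2 two-colour Agilent arrays with the dyes exchanged, giving 4 arrays, and the arrays of a pair count as 1 replicate (n = 2 pairs).

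The sex genes ran against the sex labels in both pairs and both genotypes. In the male-labelled pair, Xist was detected above background on 2 of 2 arrays, and in the female-labelled pair on 0 of 2. Kdm5d, Ddx3y and Eif2s3y, which lie on the Y chromosome, showed the opposite. Each ratio is taken within a pair, so the HepKO and WT mice compared had the same pattern, and the pairs are named by their labels below. Sex label, age and slide changed together between the pairs and cannot be told apart. The 2 Pnpt1 probes gave log2 HepKO over WT of -0.099 ± 0.19 and -0.52 ± 0.13 (SE, n = 2 pairs), with limma adjusted p over all kept probes of 0.747 and 0.0800. Neither passed the threshold of 0.05, so these probes do not show the deletion, and the exons removed by Cre are not given in the sources used here. Between 48.2% and 58.6% of probes were well above background per channel, and no spot was saturated.

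As background, S100 proteins carry a pair of EF-hand loops, which bind calcium and expose a surface that grips target proteins. S100a8 and S100a9 form calprotectin, stored in neutrophils and monocytes and released as an alarm signal read by receptors such as Tlr4 and Ager. S100a4 and S100a6 are linked to cell motility and the cytoskeleton, S100a10 and S100a11 bind annexins at membranes, S100a1 is best known in heart muscle, and S100a13 takes part in the release of Fgf1 and Il1a. Most of the family lies in a single cluster, which in mouse is on chromosome 3.

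The upstream DNA of members on both sides of the direction divide is shown so that their start regions can be set beside the values. RefSeq windows (GRCm38.p6, chromosome 3) matched 7 of the 8 members, and the 250 bases before the start were read 5′ to 3′ on the gene's strand. S100a4 (chr3:90603520-90603769, + strand), S100a8 (chr3:90668821-90669070, + strand), S100a9 (chr3:90695722-90695971, - strand) and S100a11 (chr3:93520246-93520495, + strand) are printed because a searched motif was found in them. Capitals mark the motif.
S100a4: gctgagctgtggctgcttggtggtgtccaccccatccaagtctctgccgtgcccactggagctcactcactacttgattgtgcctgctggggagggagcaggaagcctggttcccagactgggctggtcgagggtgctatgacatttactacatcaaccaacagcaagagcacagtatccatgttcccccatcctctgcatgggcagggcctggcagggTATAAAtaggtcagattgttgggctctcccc
S100a8: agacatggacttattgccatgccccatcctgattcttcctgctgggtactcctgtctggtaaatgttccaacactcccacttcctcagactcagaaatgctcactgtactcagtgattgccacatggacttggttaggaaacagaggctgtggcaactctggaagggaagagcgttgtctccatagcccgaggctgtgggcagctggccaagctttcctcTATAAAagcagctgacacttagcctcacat
S100a9: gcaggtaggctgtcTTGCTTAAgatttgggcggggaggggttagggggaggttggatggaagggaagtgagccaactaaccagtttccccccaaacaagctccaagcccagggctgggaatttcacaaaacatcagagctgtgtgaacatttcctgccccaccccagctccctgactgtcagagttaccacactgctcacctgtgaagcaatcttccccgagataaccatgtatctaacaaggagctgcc
S100a11: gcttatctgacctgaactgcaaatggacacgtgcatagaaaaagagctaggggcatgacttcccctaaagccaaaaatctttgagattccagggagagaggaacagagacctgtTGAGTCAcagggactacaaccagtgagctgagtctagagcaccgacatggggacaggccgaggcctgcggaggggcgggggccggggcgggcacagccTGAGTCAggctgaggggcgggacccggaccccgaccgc
In S100a4 and S100a8 the capitals are a TATA box, TATAAA, at bases -31 to -26 and -30 to -25 from the start, a motif in 12.3% of 32536 windows of the same length. In S100a9 they are the C/EBP motif TTGCNNAA (9.57% of windows), and in S100a11 they are AP-1 sites, TGANTCA (6.73% of windows), of which it held 2. The interferon-stimulated response element, the STAT motif TTCNNNGAA and the NF-kappa B motif occurred in 2.98%, 7.04% and 3.92% of windows and in 0 of the 7 members' windows. Both strands were searched, and no pair of the motifs found overlaps here. A match describes these letters and no binding was measured.

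S100a1 and S100a13, the 2 lower members, start back to back on opposite strands, and the bases between their starts are shown because they are upstream of both. The interval is chr3:90514331-90514434 (GRCm38.p6, + strand, 104 bases), with S100a1 on the - strand and S100a13 on the + strand. Capitals mark its 3 CG steps.
S100a1 and S100a13 between starts: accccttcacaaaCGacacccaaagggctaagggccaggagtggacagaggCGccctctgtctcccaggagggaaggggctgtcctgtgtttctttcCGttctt
Its GC content was 58.7%, against a median of 52.4% over all windows, and it held 0 sites of the searched motifs.

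Levels below are log2 normalised signals of single probes, so they compare mice for a gene and never genes with each other. Each is the mean of a mouse's 2 arrays after background correction with 50 units added, an addition that draws the ratios of dim genes towards 0. For the levels alone, the average log2 intensities were also quantile-normalised between arrays, which leaves the ratios unchanged. Changes are log2 HepKO over WT ± moderated SE over 2 pairs, with limma p-values adjusted (Benjamini-Hochberg) over all 11495 genes.

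Among these genes 1805 (15.7%) passed the threshold, 12.0% higher and 3.71% lower in HepKO. All 8 members passed it, 6 higher and 2 lower, each measured by a single probe. With the background correction fitted on all spots, or with no filter on dim probes, 0 genes and so 0 members passed. The members were chosen with earlier results of these data known, so their count is a description. In this bulk material, fewer cells of a type and less RNA per cell cannot be told apart. Their median change was 1.84, against a median of 0.083 over all measured genes. In the scanner software's log ratios, which add no constant, the members' median was 2.73. Near background those ratios are unsteady. The non-members S100a3 and S100b, well above background on no array, read -0.60 and 0.61 in them. For each member the HepKO and WT mice did not overlap, which with 2 mice against 2 was also so for 68.7% of all measured genes (HepKO higher in 41.9%, lower in 26.8%), so nothing is read from it.

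**Figure D1:**
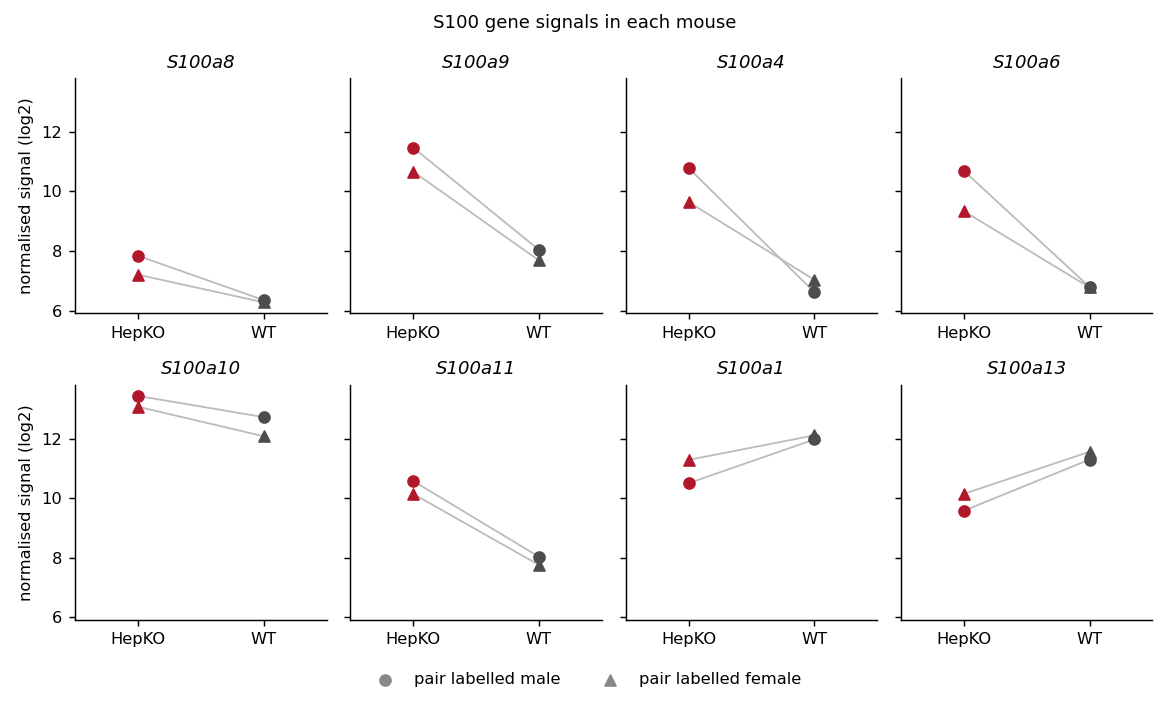
Log2 normalised signal (y axis) of each S100 member in the HepKO and WT mouse of each pair, with a line joining the mice of a pair. The HepKO and WT mice do not overlap for any member, as for 68.7% of all measured genes, and S100a1 and S100a13 are the members that lie lower in HepKO.

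The calprotectin genes were both higher in HepKO cells. S100a9 had signals of 11.47 and 10.66 in the HepKO mice of the pairs labelled male and female, against 8.04 and 7.68 in the WT mice. Both HepKO mice stood above both WT mice, as for 41.9% of all measured genes. The change was 3.21 ± 0.18 (limma adjusted p = 0.0112), or 3.44 in the pair labelled male and 2.98 in the pair labelled female. The single arrays read 3.80 and 3.07 for the male-labelled pair and 2.97 and 2.997 for the female-labelled pair, so the female-labelled arrays were nearly alike. The 95% interval of the change was 2.72 to 3.70.

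S100a8, the partner of S100a9, had signals of 7.84 and 7.20 in HepKO mice, against 6.35 and 6.28 in WT mice. WT cells were near the floor, being above background on 3 of 4 arrays, while HepKO cells were above it on all 4. Before correction the HepKO channel of S100a8 read 242 and 224 (male-labelled) and 179 and 103 (female-labelled) intensity units, against 53.0 and 69.7 and 40.2 and 63.4 in the WT channel, with local backgrounds of 24 to 57.5 units over all channels. The change was 1.21 ± 0.20 (limma adjusted p = 0.0323). In the scanner software's log ratios it was 2.71 for S100a8, so the size depends on the background step. The call was also lost without the second male-labelled array (adjusted p = 0.0548) and without the first female-labelled array (0.0568). S100a8 was not tested where a probe had to be well above background on all arrays and channels.

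Of 18 neutrophil markers listed, 14 were measured, with a median change of 0.52, or 2.50 in the scanner software's log ratios. Since 8 of the 14 were above background on no WT array, those 8 were measured only through HepKO. The added constant draws their ratios towards 0, and the scanner software's ratios are unsteady near background, so the size depends on the background step. Only Csf3r, the receptor for granulocyte colony-stimulating factor, passed the test, at 0.99 ± 0.18 (limma adjusted p = 0.0411). Over all measured genes 15.7% passed. Csf3r lies outside the rule for named genes and was chosen after its values were seen. Mpo, the myeloperoxidase of neutrophil granules, was at 1.77 ± 0.49 (adjusted p = 0.0857) and Ltf, lactoferrin, at 1.14 ± 0.36 (0.108), neither passing. Mpo and Ltf were at 2.72 and 1.81 in the pair labelled male and at 0.81 and 0.47 in the pair labelled female. The list median was 0.72 and 0.26 in these pairs. In the scanner software's ratios Mpo and Ltf were at 3.80 and 3.13, beside 2.71 for S100a8 and 3.47 for S100a9. The summed linear normalised signal of the list was 2376 and 1178 in HepKO mice, against 1007 and 936 in WT mice. Cxcr2 was not well above background on any array, and Fcnb was above it on 1 HepKO array. The part of neutrophils in the S100a8 and S100a9 values was not tested.

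S100a4 and S100a6 were both higher in HepKO cells, with wider gaps in the pair labelled male. S100a4, an S100 protein of motile cells such as fibroblasts and macrophages, had signals of 10.79 and 9.64 in HepKO mice, against 6.62 and 7.03 in WT mice. Both HepKO mice stood above both WT mice, as for 41.9% of all measured genes. The change was 3.39 ± 0.41 (limma adjusted p = 0.0202, 95% interval 2.27 to 4.51), with 4.17 in the pair labelled male and 2.61 in the pair labelled female. It ranked 64 from the highest of 11495 genes.

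S100a6, also called calcyclin, had signals of 10.69 and 9.34 in HepKO mice, against 6.79 and 6.78 in WT mice. The WT mice were nearly alike. The change was 3.23 ± 0.36 (limma adjusted p = 0.0182), with 3.90 and 2.56 in the pairs labelled male and female. Its 4 arrays read 4.15 and 3.65 (male-labelled), then 2.63 and 2.49 (female-labelled), and the 95% interval was 2.24 to 4.21. The pair labelled male was above the pair labelled female on both dye orientations, as for S100a4. Before correction the WT channel of S100a4 read 71.4 and 80.0 (male-labelled) and 80.4 and 117 (female-labelled) intensity units. That of S100a6 read 72.5 and 91.4, then 70.3 and 90.3. Local backgrounds in these channels were 24 to 57 units. In the scanner software's log ratios the changes of S100a4 and S100a6 were 4.35 and 4.30. These are 20.4-fold and 19.6-fold, against 10.5-fold and 9.37-fold here, so their size depends on the background step.

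The genes whose ratios on the 4 arrays came closest to those of S100a4 were Ms4a6b, Ifi204 and Ms4a4b, with root mean square differences of 0.102, 0.170 and 0.198 on the log2 scale over 4 arrays. Their changes were 3.44 ± 0.41, 3.53 ± 0.38 and 3.27 ± 0.37 (limma adjusted p = 0.0201, 0.0168 and 0.0184). S100a4 itself read 4.29, 4.05, 2.82 and 2.39 on the arrays in the order male-labelled 1 and 2, female-labelled 1 and 2. Likeness over 4 arrays of 2 pairs is a description.

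**Figure D2:**
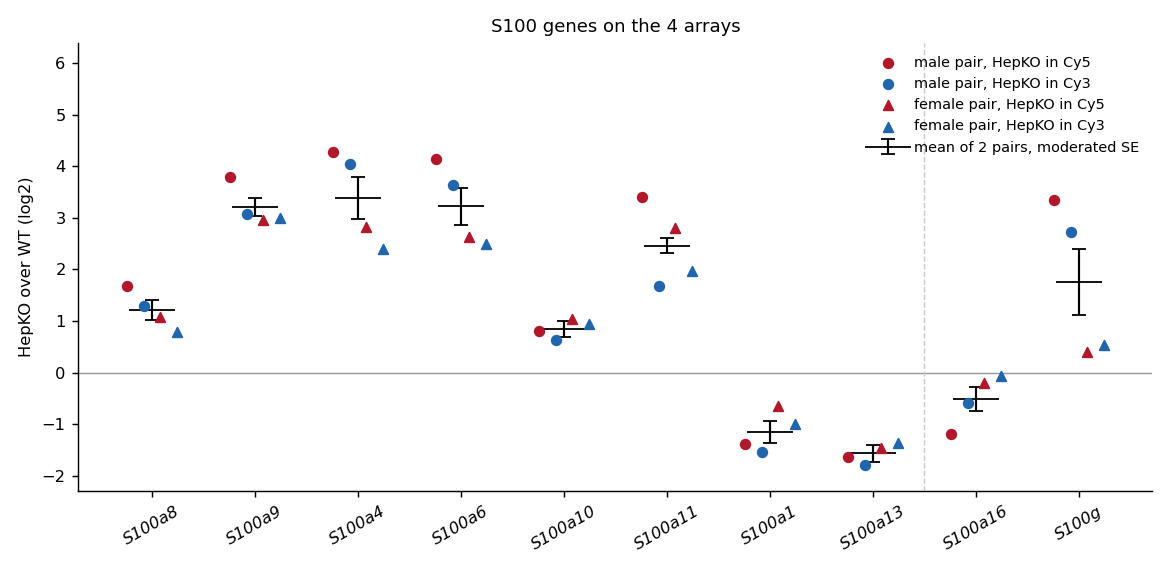
Log2 HepKO over WT (y axis) of each S100 member on each of the 4 arrays, with the mean of the 2 pairs and its moderated SE in black. S100a16 and S100g, right of the dashed line, are not members and did not pass the test. The S100a11 arrays with HepKO in Cy5 read 3.40 and 2.81 and those with HepKO in Cy3 read 1.69 and 1.96.

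Both annexin-binding members were higher in HepKO cells. S100a11 had signals of 10.58 and 10.14 in HepKO mice, against 8.03 and 7.76 in WT mice. The groups did not overlap, as for 68.7% of all measured genes. The change was 2.46 ± 0.15 (limma adjusted p = 0.0112). On single arrays it depended on the dye: with HepKO in Cy5 it was 3.40 and 2.81, and with HepKO in Cy3 it was 1.69 and 1.96. It passed the test with HepKO in Cy5 alone, at 3.10 (limma adjusted p = 0.00802), and with HepKO in Cy3 alone, at 1.82 (0.00760). The pairs themselves were close, at 2.54 and 2.38 in the pairs labelled male and female. A pseudogene, S100a11-ps, is annotated, and whether the probe also binds its transcript was not tested.

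S100a10, the light chain that joins annexin A2 in a membrane complex and whose EF-hands no longer bind calcium, had signals of 13.43 and 13.07 in HepKO mice, against 12.72 and 12.08 in WT mice. HepKO mice were higher in both pairs by a modest step. The change was 0.85 ± 0.16 (limma adjusted p = 0.0407), 0.71 in the pair labelled male and 0.99 in the pair labelled female. Among the members that were higher, it was the one with the larger value in the pair labelled female. The call was also lost without the second male-labelled array (adjusted p = 0.0546) and without the first female-labelled array (0.0520). The same held with median centring (0.0869), the scanner software's ratios (0.0740) and the authors' value table (0.0752).

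Of the 4 annexins on the partner list, Anxa2 and Anxa1 rose. Anxa2, annexin A2, had signals of 10.44 and 10.42 in HepKO mice, against 7.59 and 7.33 in WT mice, a change of 2.97 ± 0.15 (limma adjusted p = 0.0101). Anxa1, annexin A1, which binds S100a11, rose by 1.99 ± 0.16 (adjusted p = 0.0139). Anxa6 and Anxa11, named after their values were seen, were at -0.12 ± 0.18 (adjusted p = 0.669) and -0.56 ± 0.16 (0.0868), and neither passed. Of 17 listed intracellular partners and targets, 16 were measured, 7 rose, 1 fell and 8 did not pass, with a median of 0.43. Over all measured genes 12.0% rose and 3.71% fell. Iqgap1, a scaffold of the cytoskeleton, rose by 1.98 ± 0.21 (adjusted p = 0.0173).

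S100a1 and S100a13 were lower in HepKO cells. S100a13 had signals of 9.58 and 10.15 in HepKO mice, against 11.30 and 11.56 in WT mice. The groups did not overlap, as for 68.7% of all measured genes. The change was -1.57 ± 0.16 (limma adjusted p = 0.0162, 95% interval -2.01 to -1.13), with -1.72 and -1.41 in the pairs labelled male and female. The 4 arrays read -1.64 and -1.80 (male-labelled), then -1.46 and -1.37 (female-labelled), all below 0.

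S100a1 had signals of 10.50 and 11.29 in HepKO mice, against 11.97 and 12.11 in WT mice. The HepKO mouse of the pair labelled male was the lowest. The change was -1.14 ± 0.21 (limma adjusted p = 0.0412), with -1.47 and -0.82 in the pairs labelled male and female. The 4 arrays read -1.39 and -1.55 (male-labelled), then -0.64 and -0.999 (female-labelled), with the smallest shift on the female-labelled array that had HepKO in Cy5. The 95% interval was -1.73 to -0.56. The call was also lost without the second male-labelled array (adjusted p = 0.0569), without the second female-labelled array (0.0568) and with HepKO in Cy5 alone (0.0569). The same held with the scanner software's ratios (0.0555), the authors' value table (0.0567) and over all kept probes (0.0527).

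Fgf1, the growth factor whose release S100a13 is known to assist, was the partner-list member that fell. It had signals of 8.60 and 8.90 in HepKO mice, against 10.16 and 9.96 in WT mice, a change of -1.31 ± 0.19 (limma adjusted p = 0.0268). Il1a, the other cargo linked to S100a13 and named here after its values were seen, rose by 1.27 ± 0.14 (adjusted p = 0.0184). The 2 cargo genes thus moved in opposite directions.

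Of 16 S100 genes listed, 15 had a named probe and 10 were measured. The 8 members make up 8 of those 10, and the other 2 did not pass. S100a16, a widely expressed member, had signals of 9.60 and 10.07 in HepKO mice, against 10.49 and 10.21 in WT mice, a difference of -0.51 ± 0.23 (limma adjusted p = 0.201). S100g, the vitamin D-dependent calbindin of intestine, had signals of 9.18 and 6.57 in HepKO mice, against 6.14 and 6.10 in WT mice. Its value of 1.76 ± 0.65 (adjusted p = 0.141) came mostly from the pair labelled male, at 3.04, with 0.47 in the pair labelled female, and it passed only with the scanner software's ratios (4.59, adjusted p = 0.0472) and the authors' value table. S100a3, S100a5, S100a7a, S100a14 and S100b were not well above background on any array.

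In chromosomal order the signs of the measured S100 genes fell into blocks. S100a1, S100a13 and S100a16 lie together and were below 0, S100a4, S100a6, S100a8 and S100a9 follow and were above 0, and S100a11 and S100a10 lie beyond a stretch of skin-barrier genes and were above 0. S100a16 did not pass the test. The interval, with 6 protein-coding genes on each side, held 82 protein-coding genes, of which 23 were measured. Of the 14 measured genes that are not S100 genes, 1 passed, against 15.7% of all genes. At the S100a1 end, Slc27a3, Ints3, Snapin and Chtop, named after their values were seen, were at 0.033, -0.20, -0.32 and 0.24, and none passed.

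**Figure D3:**
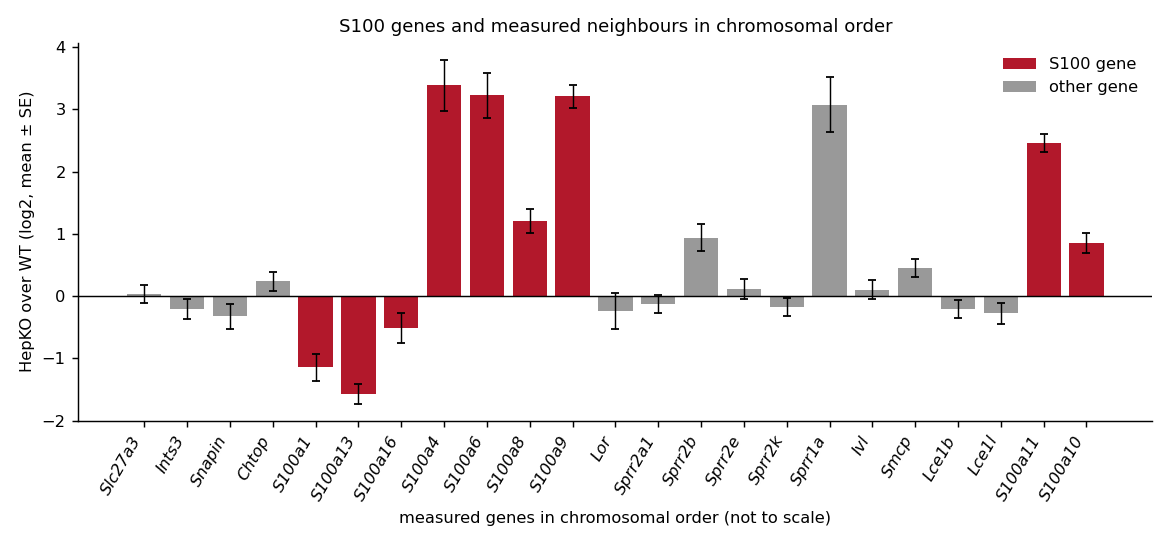
Log2 HepKO over WT (y axis, mean and SE of 2 pairs) of S100 genes and their measured neighbours in chromosomal order (x axis, not to scale). S100a1, S100a13 and S100a16 lie below 0 and the later S100 genes above it.

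Of 10 listed surface receptors for secreted S100 proteins, 9 were measured, of which 4 rose (12.0% of all measured genes did) and 5 did not pass. The median was 0.79, or 1.57 in the scanner software's ratios. Cd36, a scavenger receptor described as binding S100a8 and S100a9 with fatty acid, had signals of 10.60 and 11.005 in HepKO mice, against 7.93 and 7.14 in WT mice, a change of 3.27 ± 0.33 (limma adjusted p = 0.0160). Cd14, the co-receptor of Tlr4, had signals of 10.80 and 9.46 in HepKO mice, against 7.28 and 7.60 in WT mice, a change of 2.69 ± 0.43 (adjusted p = 0.0315). Both were higher in each pair. Emb, embigin, rose by 1.32 ± 0.17 (adjusted p = 0.0225), Alcam, a cell adhesion molecule named after its values were seen, rose by 0.79 ± 0.15 (0.0437), and Cd69, an activation marker of lymphocytes, was at 1.11 ± 0.27 (0.0701). Tlr4, the signalling receptor itself and named for its role after its values were seen, was at 0.22 ± 0.14 (adjusted p = 0.334). Tlr4, Cd69 and Emb were above background on 1, 1 and 2 of 4 WT arrays, so the added constant draws their ratios towards 0. In the scanner software's ratios they were at 1.57, 3.62 and 3.67, so their size depends on the background step. Ager was not well above background on any array.

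Of 26 other EF-hand proteins listed, all measured, 4 rose (12.0% of all measured genes did) and 22 did not pass, with a median of 0.17. Rgn, regucalcin, was listed with them but is a calcium-binding protein of hepatocytes without an EF-hand, and it fell. It had signals of 13.72 and 15.05 in HepKO mice, against 16.65 and 16.34 in WT mice, a change of -2.11 ± 0.43 (limma adjusted p = 0.0486). Rcn1, a calcium-binding protein of the endoplasmic reticulum, rose by 1.26 ± 0.14 (adjusted p = 0.0189), and Micu2, a gatekeeper of mitochondrial calcium uptake, rose by 1.04 ± 0.16 (0.0280). Calm2, a calmodulin gene, and Gca, grancalcin, both named after their values were seen, rose by 0.85 ± 0.14 (adjusted p = 0.0339) and 0.85 ± 0.16 (0.0439). Efhd2 was at 0.90 ± 0.22 (adjusted p = 0.0700).

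Markers of other liver cells were part higher and part without a call. The share over all measured genes, beside which these counts stand, was 12.0% higher and 3.71% lower. Of 17 measured monocyte and macrophage markers, 14 rose and 3 did not pass, with a median of 1.61, led by Marco (4.26 ± 0.29) and Fcgr1 (3.28 ± 0.40). Cd163, a macrophage receptor named after its values were seen, was at -0.75 (adjusted p = 0.0666). The list's summed linear signal was 82145 and 86212 in HepKO mice, against 10779 and 24232 in WT mice, and 1 of the 17 was above background on no WT array. Of 16 endothelial markers 11 rose and 5 did not pass (median 1.15, led by Cd34 and Lyve1), with 1 of the 16 above background on no WT array.

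Of 15 measured lymphocyte markers 8 rose and 7 did not pass, led by Gzmb and Nkg7. Their median was 0.92, or 2.89 in the scanner software's ratios, and 6 of the 15 were above background on no WT array, so these passed the filter only through HepKO. Of 15 stellate cell and fibroblast markers 6 rose and 9 did not pass (median 0.73, led by Col3a1 and Col1a2), and 3 of the 15 were below 0. Of 8 cholangiocyte and progenitor markers 2 rose, Spp1 and Bicc1, and 6 did not pass (median 0.83, or 2.43 in the scanner software's ratios), with 1 of the 8 above background on no WT array.

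Of 14 measured hepatocyte markers 1 fell, Cyp2e1 (-2.38 ± 0.30, limma adjusted p = 0.0212), and 13 did not pass, with a median of -0.15. Hpd was at -1.15 ± 0.33 (adjusted p = 0.0882). Of the 14, 8 were below 0 and 6 above. Their summed signal was 959583 and 1179210 in HepKO mice, against 1306190 and 1076960 in WT mice. Of 4 measured erythroid markers Hba-a1 rose and Alas2, named after its values were seen, fell. Klf1 was at -1.02 ± 0.23 (limma adjusted p = 0.0565) and did not pass. Of the 4, 2 were above 0 and 2 below, and 1 was above background on no WT array. The erythroid median was -0.25 and turned to 0.54 in the scanner software's ratios. All 14 measured hepatocyte markers were above background on every HepKO array. The part of these cells in the S100 values was not tested.

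**Figure D4:**
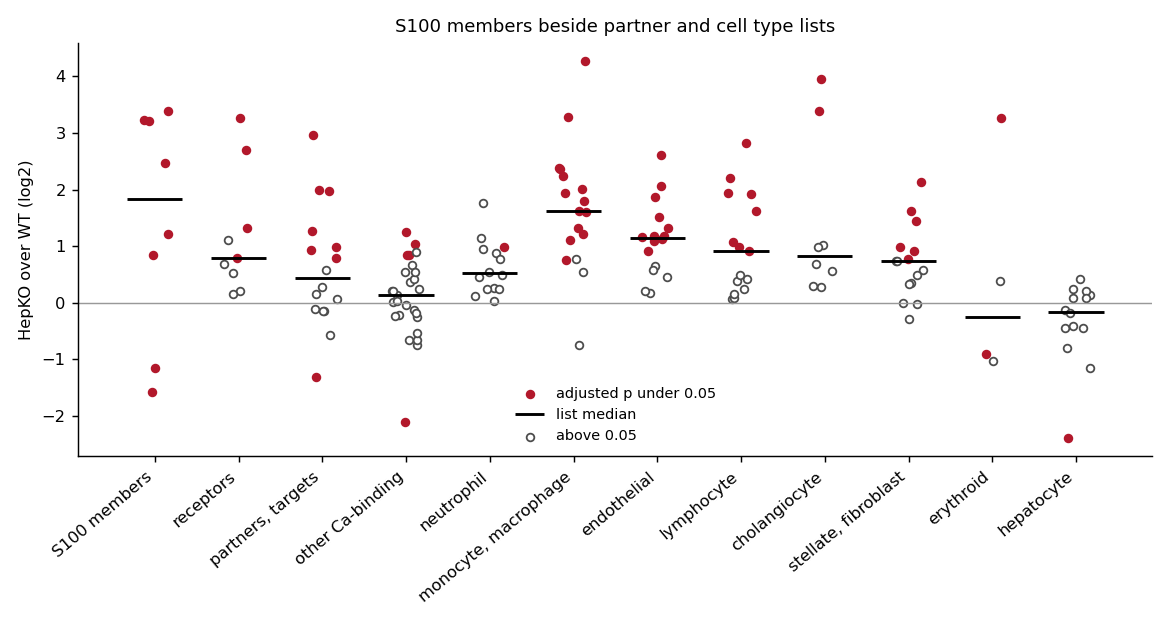
Log2 HepKO over WT (y axis) of each measured gene in the S100 members, their partner lists and the cell type marker lists, filled where the limma adjusted p is under 0.05, with a line at each list's median. The other calcium-binding list includes Rgn. The median is 1.84 for the members and 1.61 for monocyte and macrophage markers.

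**Figure D5:**
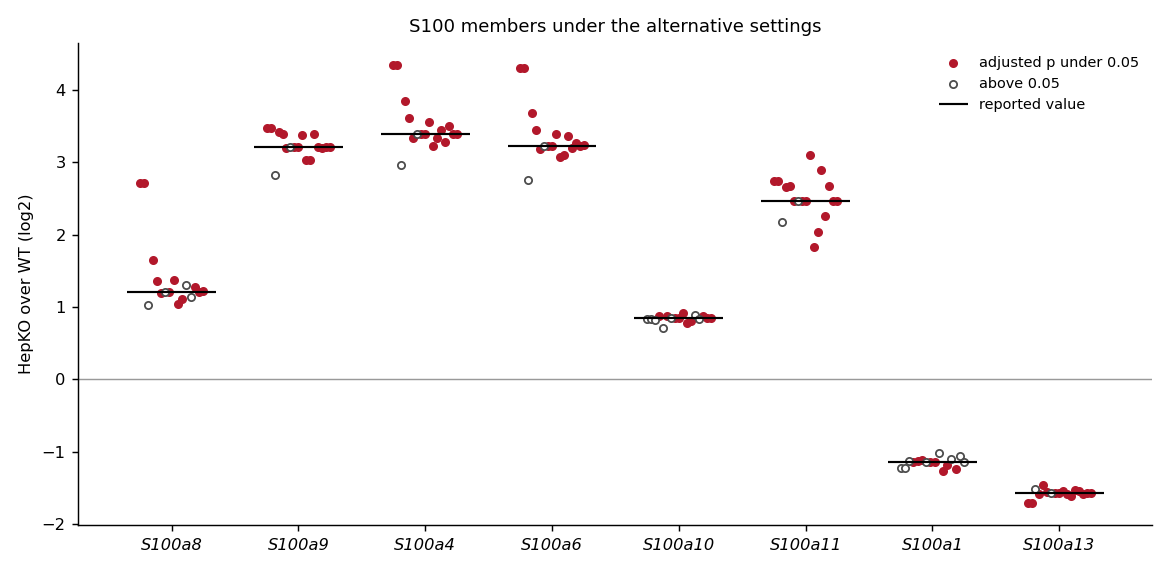
Log2 HepKO over WT (y axis) of each member under each alternative setting, with a line at the reported value and filled points where the limma adjusted p is under 0.05. No member changed direction under any setting that gave it a value.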

How the data were processed

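Scanner intensities and log10 ratios were deposited for 4 arrays, read with Agilent Feature Extraction 10.2.1.3 per the file headers. The deposited value table held the same log10 ratios, turned to HepKO over WT on each array. The mean and background intensities were background-corrected here (normexp, offset 50, outlier-flagged spots left out first), normalised by loess with control spots at weight 0, averaged by probe and by pair, and tested with limma 3.58.1 in R 4.3.3 (intercept, eBayes). For the levels, average intensities were also quantile-normalised between arrays. A probe was kept where, in at least 1 genotype, both arrays of a pair had it well above background. Accessions gave 22951 of 41174 probes a gene name (RefSeq, GRCm38.p6), and each gene was represented by its brightest kept probe. Precision is limited by the 2 pairs. The moderated p-values and SE combine the spread between them with a prior variance estimated over all genes (3.12 prior degrees of freedom). Members and lists were chosen with earlier results of these data known. Named genes are the members, measured genes of the family list, Pnpt1, the up to 4 largest changes of each partner list, the 2 largest of each marker list and the 3 genes most like S100a4. Alternatives changed background, normalisation, filter, probe rule, dye orientation and arrays used. The fit was tested on simulated data.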

Additional observations from a re-analysis of the deposited data

How the results depend on the processing

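No member reversed direction under the alternatives that gave it a value. With normexp fitted on all spots, and with no filter on dim probes, limma called 0 genes higher and 0 lower, so 0 members higher and 0 lower, with 3010 and 4638 genes at an unadjusted p under 0.05 and smallest adjusted p of 0.0732 and 0.0689. The members' adjusted p then ran up to 0.155. The 427 genes lower became 701 with scale normalisation and 683 with HepKO in Cy3 alone. Over all kept probes 682 of 22807 were lower, a count of probes and not of genes. The 2 lower members became 1, with S100a1 lost, under the scanner software's ratios, the authors' value table, HepKO in Cy5 alone, all kept probes (adjusted p = 0.0527) and, chosen after seeing the data, with background population flags left out too. Leaving out each array in turn gave 920 to 1572 genes higher, 202 to 572 lower (202 without the second male-labelled array), 4 to 6 members higher and 1 to 2 lower. The median over all genes was 0.083, against 0.18 with median centring and 0.0063 with the scanner software's ratios. The fit uses the pairing, because each value is a ratio within a pair. No further pairing was possible, since the replicate numbers name arrays of a dye swap. Signals near background limit S100a8 and S100g, and low WT signals limit the sizes given for S100a4 and S100a6.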

Other observations

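Between the S100 blocks lies a run of skin-barrier genes, of which Sprr1a, encoding a small proline-rich protein of the cornified envelope, was the measured gene that passed. It changed by 3.08 ± 0.45 (limma adjusted p = 0.0272) and was chosen after its values were seen. The nearest measured genes on either side, Sprr2k and Ivl, were at -0.18 (adjusted p = 0.415) and 0.10 (0.662).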
